A study of Homo sapiens with 21 samples.

Results

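The genes described here encode the channels that couple metabolism to hormone release in islet cells: ABCC8 and KCNJ11, which encode the subunits of the ATP-sensitive potassium (KATP) channel, and CACNA1A, CACNA1B, CACNA1C, CACNA1D, CACNA1E and CACNA1H, which encode pore-forming alpha1 subunits of voltage-gated calcium channels. They were chosen by symbol, with no measured value in the rule, and all 8 were found among the 62699 genes of the count table. RNA had been sequenced from islets made by directed differentiation of H1, an established human embryonic stem cell line. Per the labels the cells were wild type (WT) or carried a homozygous knockout, written ISL1-/-, PAX6-/- or PDX1-/-, and the 3 targeted genes encode transcription factors of the endocrine pancreas. Cells of every group had received a lentivirus on day 11, either with ISL1 and the blue fluorescent protein BFP (the ISL1 vector) or with BFP alone (the BFP vector), and BFP-positive cells were collected by flow cytometry on day 18. No group went without a virus, and the number of clones per genotype is not given in the sources used here. The 21 libraries form 8 groups: 2 libraries each for WT with the BFP vector, WT with the ISL1 vector and PDX1-/- with the ISL1 vector, and 3 for each of the other 5 groups. They are named below by genotype, vector and the number in the sample description.

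In a beta cell at rest, open KATP channels hold the membrane near the potassium potential. When glucose is metabolised the ratio of ATP to ADP rises, the KATP channels close, the membrane depolarises, voltage-gated calcium channels open, and the calcium that enters triggers the fusion of insulin granules. KCNJ11 encodes Kir6.2, the pore that ATP closes, and ABCC8 encodes SUR1, the regulatory subunit bound by sulfonylurea drugs; mutations of either cause neonatal diabetes or congenital hyperinsulinism. Among the calcium channel genes, CACNA1A encodes the P/Q-type pore, CACNA1B the N-type pore, CACNA1C and CACNA1D the L-type pores, CACNA1E the R-type pore and CACNA1H a T-type pore that opens at low voltage. Other endocrine cells, among them alpha cells and the serotonin-producing enterochromaffin cells, also use these channels.

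On GRCh38 the KATP subunit genes lie next to each other on the minus strand of chromosome 11, KCNJ11 at 17365172 to 17389331 and ABCC8 at 17392498 to 17476894, with 3166 bases between them. CACNA1A (chromosome 19, 13206442 to 13633025) is on the minus strand, and the others are on the plus strand: CACNA1B (chromosome 9, 137877782 to 138124624), CACNA1C (chromosome 12, 1970772 to 2697950), CACNA1D (chromosome 3, 53328963 to 53813733), CACNA1E (chromosome 1, 181317690 to 181813262) and CACNA1H (chromosome 16, 1153106 to 1221771). Promoters of 5 of the 8 genes, CACNA1A, CACNA1B, CACNA1C, CACNA1D and CACNA1E, were in a RefSeq table for GRCh38.p14 that gives 250 bases before and 50 after a start site. CACNA1B is printed because its RNA varied most with the groups among the genes above 1 CPM (the counts-per-million scale) in every library, CACNA1D because its RNA went with that of CACNA1B across libraries, and CACNA1A because its RNA varied little between groups. Capitals mark GC boxes (GGGCGG on either strand, overlaps included). The windows are chr9:137877532-137877831 on the plus strand for CACNA1B, chr3:53494361-53494660 on the plus strand for CACNA1D and chr19:13506430-13506729 on the minus strand for CACNA1A, each 5′ to 3′ along the gene.
CACNA1B: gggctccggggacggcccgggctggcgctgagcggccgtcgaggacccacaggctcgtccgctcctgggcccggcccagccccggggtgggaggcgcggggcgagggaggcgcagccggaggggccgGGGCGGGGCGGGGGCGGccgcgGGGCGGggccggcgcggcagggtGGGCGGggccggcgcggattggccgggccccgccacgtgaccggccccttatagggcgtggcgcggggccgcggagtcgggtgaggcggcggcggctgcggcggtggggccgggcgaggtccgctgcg
CACNA1D: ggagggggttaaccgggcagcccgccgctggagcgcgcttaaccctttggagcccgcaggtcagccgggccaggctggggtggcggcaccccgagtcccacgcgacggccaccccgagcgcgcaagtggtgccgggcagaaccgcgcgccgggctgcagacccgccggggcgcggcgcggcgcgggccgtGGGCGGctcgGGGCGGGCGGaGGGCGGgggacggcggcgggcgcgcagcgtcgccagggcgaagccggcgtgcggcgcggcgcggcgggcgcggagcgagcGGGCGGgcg
CACNA1A: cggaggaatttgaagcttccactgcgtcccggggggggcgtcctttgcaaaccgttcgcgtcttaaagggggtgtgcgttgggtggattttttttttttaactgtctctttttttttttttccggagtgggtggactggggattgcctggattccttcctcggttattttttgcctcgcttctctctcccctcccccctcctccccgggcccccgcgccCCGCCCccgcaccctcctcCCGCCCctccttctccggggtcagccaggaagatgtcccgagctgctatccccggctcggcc
The window of CACNA1B is 85.3% G or C with 5 GC boxes, that of CACNA1C 82.3% with 6, that of CACNA1D 83% with 5, that of CACNA1A 60.7% with 2 and that of CACNA1E 48% with 0. Over all 35116 promoters of the table the median is 58.7%, and 45% hold a GC box. On either strand, none of the 5 windows holds TAATTA, a core bound by homeodomain factors (in 4.84% of all promoters), TGACGTCA, the cyclic AMP response element (1.85%), or TATAAA, the TATA box (11.5%). These matches describe letters in a window and say nothing of which factors bind there.

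Total counts per library ran from 36.8 to 60.2 M, with a median of 50.4 M. Of these genes ABCC8 had the most reads, 9162 to 46581 per library, and CACNA1E the fewest, 5 to 124. Replicate 3 of PAX6-/- with the ISL1 vector and replicate 4 of PDX1-/- with the ISL1 vector stood apart from their groups: 3.17% and 3.84% of their counts were mitochondrial against 1.93% or less in the other 19 libraries, and INS was at 25610 CPM in the latter against 164 CPM in the other library of its group. Tests on the channel genes of these groups are given with and without them. The targeted genes were read first. ISL1 RNA was lower in ISL1-/- than in WT with the BFP vector (log2 fold change -2.42 ± 0.39 SE, edgeR adjusted p = 0.00126), while PAX6 in PAX6-/- (-0.45 ± 0.45, adjusted p = 0.672) and PDX1 in PDX1-/- (0.29 ± 0.23, adjusted p = 0.541) were not called, and where each lesion lies is not given in the sources used here. ISL1 RNA did not separate the vectors in any genotype, with log2 fold changes from -0.24 to 0.56 and adjusted p from 0.338 to 1, so ISL1 RNA does not check the vector labels. Other genes did separate the vectors in knockouts. GCG, the glucagon gene, was at 74.2 to 90.9 CPM with the BFP vector and 2197 to 5362 CPM with the ISL1 vector in ISL1-/- (5.36 ± 0.97, adjusted p = 0.0176). HHEX, a delta cell factor, was called higher with the ISL1 vector in all 3 knockouts. GCG was not called between vectors in PAX6-/- (edgeR adjusted p = 0.496), PDX1-/- (edgeR adjusted p = 0.185) or WT. In WT edgeR called 7 of 25884 genes between vectors, and no gene is given here as a check of the WT vector labels. In bulk RNA, fewer cells of a type and less RNA per cell cannot be told apart. Markers of 10 cell types were read beside the channel genes. With the BFP vector, called higher and lower in ISL1-/-, PAX6-/- and PDX1-/- against WT were 1 and 3, 0 and 3, and 2 and 4 of 8 beta cell markers. The same counts were 0 and 5, 0 and 3, and 0 and 2 of 7 alpha cell markers, and 0 and 4, 0 and 3, and 0 and 2 of 4 delta cell markers. They were 0 and 0, 2 and 0, and 1 and 0 of 3 epsilon cell markers, and 4 and 0, 1 and 0, and 5 and 0 of 5 enterochromaffin markers. They were 0 and 0, 1 and 0, and 2 and 1 of 10 general endocrine markers, 1 and 1, 1 and 0, and 2 and 1 of 7 neuronal markers, and 0 and 1 in each knockout of 7 progenitor and duct markers. In these 3 comparisons edgeR called no cardiac or other muscle marker of 8 and no mesenchyme marker of 7, although the 8 muscle markers summed to 133 to 607 CPM in ISL1-/- against 24.8 to 56.9 CPM in WT, both with the BFP vector.

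The KATP subunit genes were highest in WT and lowest in PAX6-/- with the ISL1 vector. ABCC8 was at 715 and 644 CPM in the WT libraries with the BFP vector and at 824.5 and 519 CPM in those with the ISL1 vector. In ISL1-/- it was at 455, 574 and 724.5 CPM with the BFP vector and at 372, 463 and 698 CPM with the ISL1 vector, so that both groups overlapped WT. In PAX6-/- it was at 416, 342 and 462 CPM with the BFP vector and at 252, 282 and 192 CPM with the ISL1 vector, and every one of these 6 libraries was below all 4 WT libraries. In PDX1-/- it was at 392, 331 and 383 CPM with the BFP vector, and at 283 and 473.5 CPM in replicates 2 and 4 with the ISL1 vector, again below all 4 WT libraries. Group means therefore ran from 679.5 ± 49.9 CPM (SD, n = 2) in WT with the BFP vector to 242 ± 45.8 CPM (SD, n = 3) in PAX6-/- with the ISL1 vector. Neighbours in the order of group means overlapped in their libraries, except PDX1-/- with the BFP vector and PAX6-/- with the ISL1 vector, the last pair.

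KCNJ11 kept nearly the same order at a lower level. It was at 47.2 and 50.9 CPM in WT with the BFP vector and at 50.6 and 39.7 CPM in WT with the ISL1 vector. ISL1-/- libraries were at 41.1, 36.8 and 43.0 CPM with the BFP vector and at 30.5, 34.3 and 43.3 CPM with the ISL1 vector. PAX6-/- libraries were at 37.2, 27.4 and 43.2 CPM with the BFP vector, and at 23.4, 22.7 and 23.7 CPM with the ISL1 vector. PDX1-/- libraries were at 34.4, 32.6 and 32.9 CPM with the BFP vector, and at 22.9 and 24.2 CPM with the ISL1 vector. The 5 libraries of PAX6-/- and PDX1-/- with the ISL1 vector thus lay within 22.7 to 24.2 CPM and below every other library, and the library of PDX1-/- that stood apart in INS lay within this range. KCNJ11 overlaps NCR3LG1 on the opposite strand, which had 99 to 1537 counts per library, and without the strand setting of the counting the reads of the pair cannot be told apart.

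**Figure D1:**
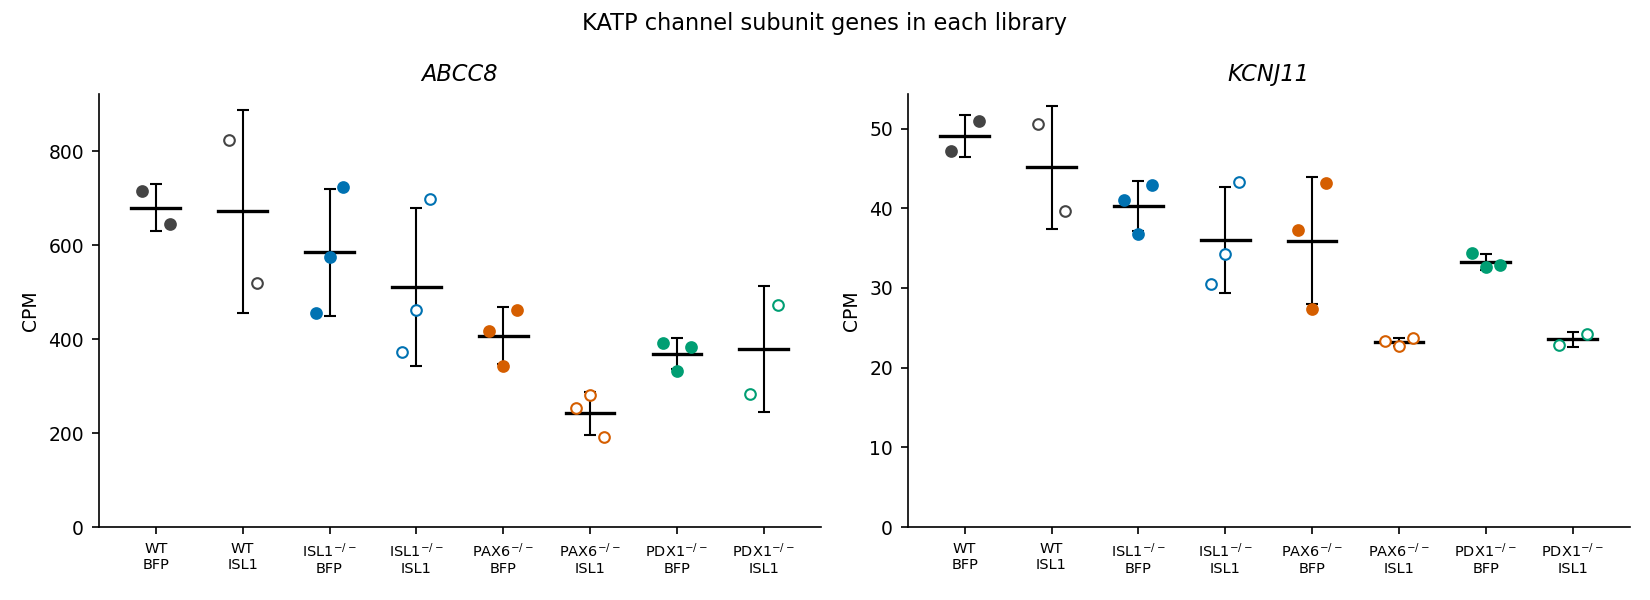
ABCC8 and KCNJ11 in CPM (vertical axes, from 0) in each library, by genotype and vector (horizontal axis); filled points carry the BFP vector, open points the ISL1 vector, horizontal lines are group means and bars are ± 1 SD over 2 or 3 libraries. The PAX6-/- libraries with the ISL1 vector sit lowest for ABCC8 (192 to 282 CPM), and those of PAX6-/- and PDX1-/- with the ISL1 vector sit lowest for KCNJ11 (22.7 to 24.2 CPM).

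Differences were tested in edgeR (quasi-likelihood) with 1 model of all 21 libraries, and a gene was called where its p, adjusted over the 25884 genes tested, was under 0.05. ABCC8 fell by 1.47 ± 0.30 (SE) on the log2 scale in PAX6-/- against WT with the ISL1 vector (95% interval -2.10 to -0.85, adjusted p = 0.00889), a level 0.36 times that of WT. KCNJ11 fell by 0.96 ± 0.20 in the same comparison (95% interval -1.38 to -0.53, adjusted p = 0.0128), 0.516 times WT. They were the 2 of 8 channel genes called there, both lower, where 3.56% of all genes were called, 1.26% higher and 2.3% lower. Both calls rest on replicate 1 of WT with the ISL1 vector, the WT library with the highest ABCC8: without it the log2 fold changes were -1.12 (adjusted p = 0.194) and -0.79 (adjusted p = 0.21). Without replicate 3 of PAX6-/- they were -1.33 (adjusted p = 0.0289) and -0.97 (adjusted p = 0.0216), and in a fit of the 5 libraries of these groups alone neither was called (adjusted p = 0.216 and 0.296). In the same comparison the beta cell markers IAPP, G6PC2 and SLC30A8, the alpha cell markers GCG, GC and DPP4 and the delta cell marker HHEX were called lower. NKX2-2, of the general endocrine markers, was called higher. The epsilon cell markers GHRL and ACSL1 were called higher and PHGR1 lower, and the 3 epsilon markers summed to 2376 to 15840 CPM against 250 to 257 CPM in WT. The part of these cell types in the result was not tested.

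In the other comparisons with WT the KATP subunit genes had log2 fold changes below 0 without a call. With the BFP vector ABCC8 was at -0.22 ± 0.30 in ISL1-/-, -0.74 ± 0.30 in PAX6-/- and -0.88 ± 0.30 in PDX1-/-, with adjusted p of 0.781, 0.171 and 0.0695. KCNJ11 was at -0.28 ± 0.20, -0.45 ± 0.20 and -0.56 ± 0.20, with adjusted p of 0.505, 0.237 and 0.097. With the ISL1 vector ABCC8 was at -0.40 ± 0.30 in ISL1-/- and -0.83 ± 0.33 in PDX1-/-, and KCNJ11 at -0.33 ± 0.20 and -0.94 ± 0.23, with adjusted p of 0.575, 0.292, 0.469 and 0.0722. These comparisons share the WT libraries, 2 for each vector. Both libraries that stood apart were also left out together, a choice made after the data were seen. ABCC8 was then also called lower in PAX6-/- (-0.75, adjusted p = 0.0253) and PDX1-/- (-0.90, adjusted p = 0.00724) with the BFP vector. KCNJ11 was then called lower in PDX1-/- with the BFP vector (-0.58, adjusted p = 0.0146). In these comparisons of PAX6-/- and PDX1-/- that fit called 6423 and 7544 of 27284 genes. Over all libraries 1425 and 2506 of 25884 were called. That fit leaves 1 library in PDX1-/- with the ISL1 vector, where ABCC8 was at -1.24 and KCNJ11 at -0.97, so no call is given there.

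A channel needs both subunits in equal number, so their RNA was also compared per length of the longest coding transcript (5336 bases for ABCC8, 2801 for KCNJ11). On that scale ABCC8 exceeded KCNJ11 in every group. In the BFP libraries the ratio was 7.29 ± 0.93 (SD, n = 2) in WT, 7.62 ± 1.6 (n = 3) in ISL1-/-, 6.01 ± 0.49 (n = 3) in PAX6-/- and 5.81 ± 0.41 (n = 3) in PDX1-/-. In the ISL1 vector libraries it was 7.71 ± 1.19 (n = 2) in WT, 7.31 ± 1.04 (n = 3) in ISL1-/-, 5.47 ± 1.14 (n = 3) in PAX6-/- and 8.39 ± 2.69 (n = 2) in PDX1-/-. Single libraries ran from 4.25 to 10.3, and most groups overlapped. The size of the excess depends on the length used, and all annotated exons span 27254 bases for ABCC8 and 4946 for KCNJ11. Per kilobase of these exons ABCC8 was at 24.9 CPM and KCNJ11 at 9.92 CPM in WT with the BFP vector. In PAX6-/- with the ISL1 vector they were at 8.89 and 4.71 CPM. Per length of transcript in WT with the BFP vector, ABCC8 was at 127 CPM per kilobase and KCNJ11 at 17.5. The calcium channel genes followed with CACNA1A at 5.27, CACNA1H at 3.09, CACNA1C at 1.52, CACNA1D at 1.13, CACNA1B at 0.601 and CACNA1E at 0.0511. With the length of all annotated exons in place of the transcript, CACNA1H (2.95) passed CACNA1A (1.06) and CACNA1B (0.595) passed CACNA1D (0.527), so the order within these pairs depends on the length used.

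Among the calcium channel genes, CACNA1A, the P/Q-type pore, had the smallest ratio of highest to lowest library, 2.58, from 29.7 to 76.5 CPM. Group means lay between 31.8 ± 1.97 CPM (SD, n = 3) in PAX6-/- and 59.7 ± 23.8 CPM (n = 2) in PDX1-/-, both with the ISL1 vector, and every pair of neighbours in the order of means overlapped. CACNA1A was called in none of the 13 comparisons.

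CACNA1B, the N-type pore known mainly from presynaptic terminals, had its lowest group means in WT. It was at 5.52 and 6.26 CPM in WT with the BFP vector and at 9.97 and 6.67 CPM with the ISL1 vector. In knockouts with the BFP vector it was at 18.2, 19.6 and 27.3 CPM in ISL1-/-, at 22.8, 18.7 and 20.4 CPM in PAX6-/- and at 37.1, 18.7 and 39.8 CPM in PDX1-/-. All 9 of these libraries were above every library with the ISL1 vector and above WT. Under the ISL1 vector it was at 9.34, 11.0 and 14.7 CPM in ISL1-/-, at 12.7, 12.7 and 6.88 CPM in PAX6-/- and at 15.0 and 2.64 CPM in replicates 2 and 4 of PDX1-/-. Replicate 4 of PDX1-/- was thus the lowest of all 21 libraries.

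CACNA1C and CACNA1D encode the L-type pores of insulin release. CACNA1C was at 19.8 and 21.2 CPM in WT with the BFP vector, below all 9 knockout libraries with that vector, whose means were 29.4 ± 7.40 CPM (SD, n = 3) in ISL1-/-, 34.4 ± 1.65 CPM (n = 3) in PAX6-/- and 36.2 ± 9.47 CPM (n = 3) in PDX1-/-. Under the ISL1 vector it was at 32.6 and 20.3 CPM in WT, and at 10.4 to 31.8 CPM in the knockouts. CACNA1D was at 10.0 and 10.2 CPM in WT with the BFP vector, at 10.0 to 14.0 CPM in ISL1-/-, at 14.1 to 19.9 CPM in PAX6-/- and at 13.5 to 23.9 CPM in PDX1-/-. With the ISL1 vector its highest library was WT replicate 1 at 16.6 CPM, and its lowest were replicate 3 of PAX6-/- at 3.92 CPM and replicate 4 of PDX1-/- at 2.55 CPM. DCP1B overlaps CACNA1C, and DCP1A and CHDH overlap CACNA1D, on the opposite strand, with 921 to 2202, 3035 to 5575 and 234 to 2432 counts per library, so reads may be shared.

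CACNA1H, a T-type pore, was at 26.6 and 24.2 CPM in WT with the BFP vector, below all 9 knockout libraries with that vector. Those were at 46.1, 51.3 and 57.4 CPM in ISL1-/-, 61.1, 59.4 and 60.9 CPM in PAX6-/-, and 93.2, 46.9 and 80.7 CPM in PDX1-/-. Under the ISL1 vector it was already at 61.1 and 42.1 CPM in WT, and at 41.7, 43.1 and 49.9 CPM in ISL1-/-, 52.6, 58.5 and 22.6 CPM in PAX6-/-, and 74.0 and 14.4 CPM in PDX1-/-. The libraries at 22.6 and 14.4 CPM are the 2 that stood apart. CACNA1E, the R-type pore, was near the limit of detection: its group means ran from 0.362 ± 0.261 CPM (SD, n = 2) in PDX1-/- with the ISL1 vector to 1.63 ± 0.391 CPM (n = 3) in ISL1-/- with the BFP vector.

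**Figure D2:**
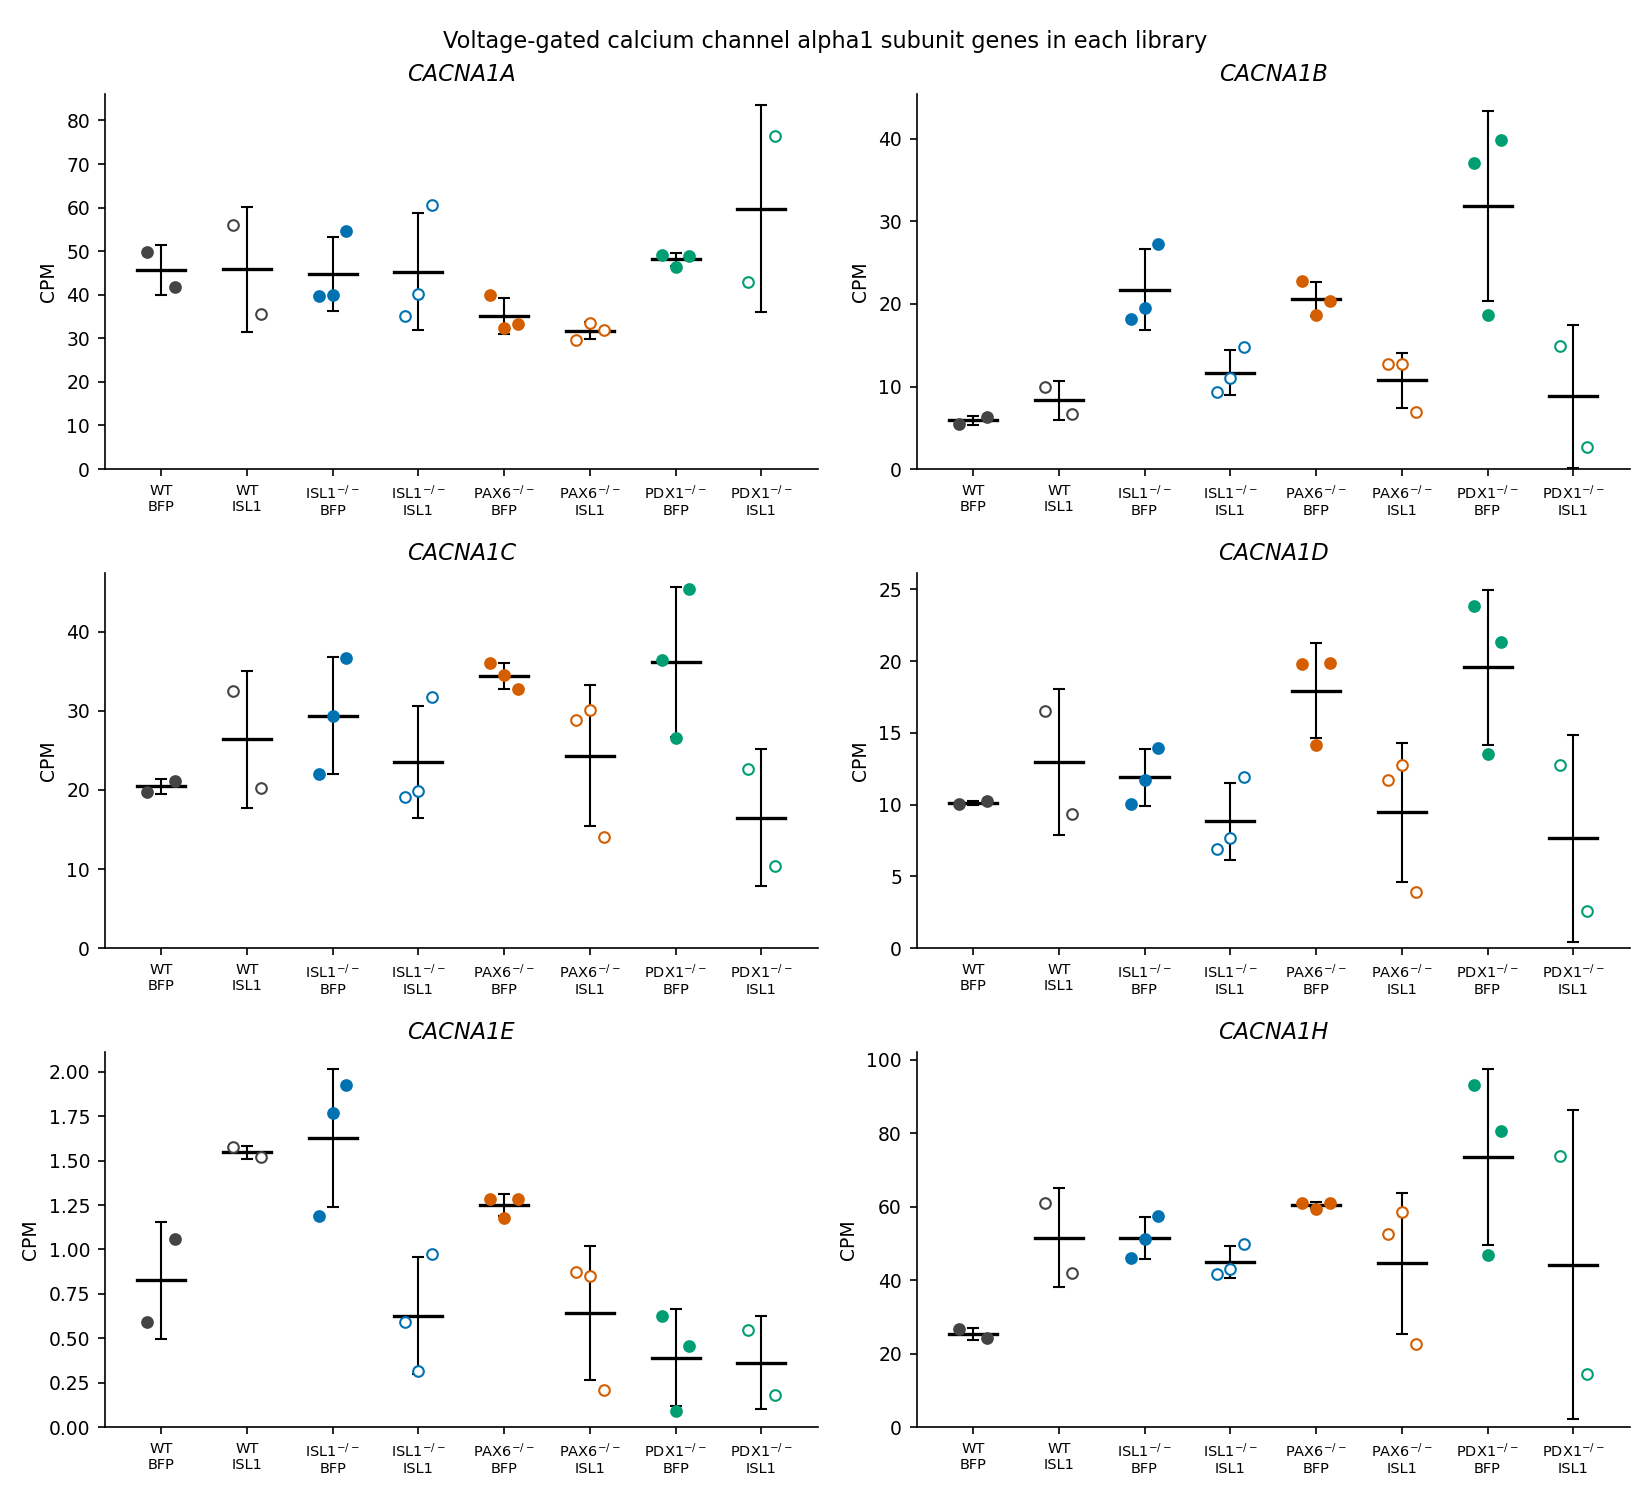
The 6 calcium channel genes in CPM (vertical axes, from 0, scaled per panel) in each library, by genotype and vector (horizontal axis); filled points carry the BFP vector, open points the ISL1 vector, lines are group means and bars are ± 1 SD over 2 or 3 libraries. CACNA1B and CACNA1H are lower in both WT libraries with the BFP vector (5.52 to 6.26 and 24.2 to 26.6 CPM) than in all 9 knockout libraries with that vector, while CACNA1A overlaps between neighbouring groups.

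With the BFP vector, CACNA1B was the one channel gene called in ISL1-/- and in PDX1-/-. It rose by 1.88 ± 0.52 (SE) on the log2 scale in ISL1-/- against WT (95% interval 0.78 to 2.99, adjusted p = 0.0429), which is 3.69-fold, and by 2.44 ± 0.54 in PDX1-/- (95% interval 1.30 to 3.57, adjusted p = 0.00784), which is 5.41-fold. In PAX6-/- the value was 1.81 ± 0.52 (95% interval 0.71 to 2.91) and missed the threshold (adjusted p = 0.0515). Thus 1 of 8 channel genes was called in ISL1-/-, where 5.59% of all genes were called (1.67% higher, 3.92% lower). In PDX1-/- it was 1 of 8, where 9.68% were called (4.03% higher, 5.65% lower), and in PAX6-/- it was 0 of 8, where 5.51% were called (2.25% higher, 3.26% lower). In PAX6-/-, 4 of 8 had an unadjusted p under 0.05, DESeq2 called 1 (CACNA1B) and limma voom with sample weights called 5. Over all genes these counts were 4941 of 25884, 2487 of 48395 and 6710 of 25884. The ISL1-/- call was lost when any 1 of its 5 libraries was left out, with adjusted p from 0.0706 to 0.285, although the log2 fold change stayed between 1.68 and 1.99. The PDX1-/- call was lost without either WT library (adjusted p = 0.114 without replicate 1 and 0.0751 without replicate 3), while it was kept without any 1 PDX1-/- library.

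The other calcium channel genes were not called with the BFP vector. CACNA1H had log2 fold changes of 1.02 ± 0.49 in ISL1-/-, 1.25 ± 0.49 in PAX6-/- and 1.54 ± 0.50 in PDX1-/- (adjusted p = 0.265, 0.165 and 0.0618). CACNA1C was at 0.52 ± 0.38, 0.75 ± 0.38 and 0.82 ± 0.38, and CACNA1D at 0.23 ± 0.53, 0.83 ± 0.53 and 0.95 ± 0.54, with adjusted p from 0.213 to 0.882. CACNA1E was at 0.99 ± 0.65, 0.61 ± 0.65 and -1.08 ± 0.66, and CACNA1A at -0.03 ± 0.27, -0.38 ± 0.27 and 0.07 ± 0.28, with adjusted p from 0.38 to 0.979. The median over the 8 channel genes was 0.38, 0.68 and 0.45 in the 3 knockouts, beside 0.02, 0.03 and 0.03 over all genes tested. The fit without both libraries that stood apart called CACNA1B in all 3 knockouts (1.90, 1.80 and 2.42, with adjusted p of 0.000209, 0.000314 and 1.58e-05) and CACNA1H in all 3 (1.04, 1.24 and 1.52, with adjusted p of 0.00252, 0.000607 and 7.75e-05). That fit called 6417, 6423 and 7544 of 27284 genes in all, against 1448, 1425 and 2506 over all libraries. The fold changes of CACNA1B and CACNA1H moved by at most 0.02. Neither of the libraries left out is in these groups, and they enter the comparison through the estimate of the spread that all groups share.

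**Figure D3:**
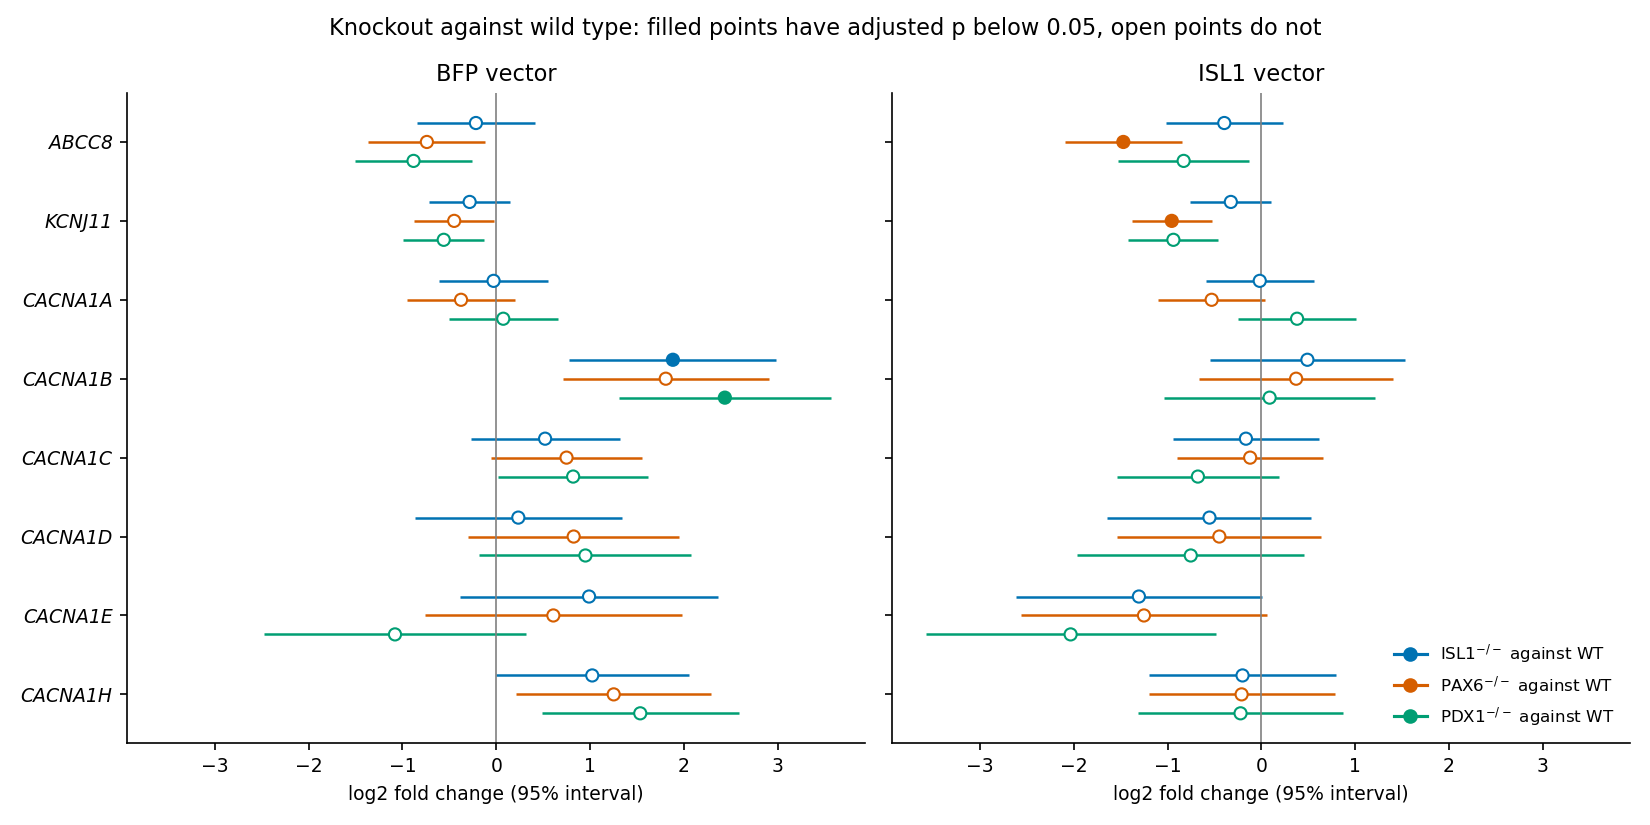
Log2 fold change of each channel gene (rows) in the 3 knockouts (colours) against WT, with the BFP vector (left) and the ISL1 vector (right); points are edgeR estimates, bars 95% intervals, and filled points have an adjusted p under 0.05. The filled points are CACNA1B in ISL1-/- (1.88) and PDX1-/- (2.44) with the BFP vector, and ABCC8 (-1.47) and KCNJ11 (-0.96) in PAX6-/- with the ISL1 vector.

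With the BFP vector, markers of enterochromaffin cells were higher in the knockouts, as CACNA1B was, but the 2 did not go together in every group. The summed level of TPH1, the rate-limiting enzyme of serotonin synthesis, FEV, a serotonergic transcription factor, SLC18A1, a vesicular amine transporter, LMX1A and DDC was 844 to 980 CPM in WT with the BFP vector. It was 2161 to 2908 CPM in ISL1-/-, 1309 to 2122 CPM in PAX6-/- and 3583 to 4234 CPM in PDX1-/- with the same vector. With the ISL1 vector it was 556 to 590 CPM in WT, 996 to 1264 CPM in ISL1-/-, 597 to 1274 CPM in PAX6-/- and 1274 to 1420 CPM in PDX1-/-. In each knockout, every library with the ISL1 vector had a lower marker sum and less CACNA1B than every library with the BFP vector. None of the 5 markers was at 0 in any group, WT included. The order was not the same library by library: the PDX1-/- library with the highest marker sum, replicate 2 at 4234 CPM, had the lowest CACNA1B of its group, and replicate 4 of PDX1-/- with the ISL1 vector had 1420 CPM of the markers with the lowest CACNA1B of all. Replicate 3 of PAX6-/- with the ISL1 vector had the highest marker sum of its group, 1274 CPM, and the lowest CACNA1B. That library and replicate 4 of PDX1-/- with the ISL1 vector are the 2 that stood apart. In WT the marker sum was lower with the ISL1 vector than with the BFP vector, while CACNA1B was at 6.67 and 9.97 CPM against 5.52 and 6.26 CPM. The part of these cells in the CACNA1B result was not tested.

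**Figure D4:**
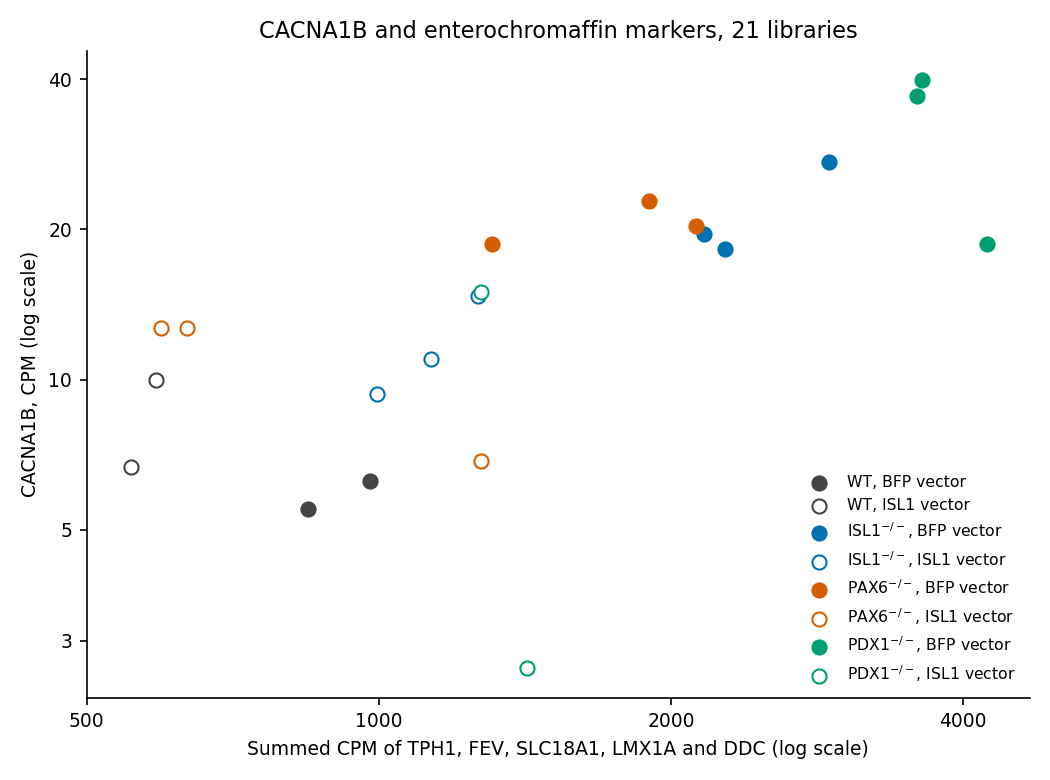
CACNA1B in CPM (vertical, log scale) against the summed CPM of 5 enterochromaffin markers (horizontal, log scale), 1 point per library (21 libraries); colour gives the genotype, filled points carry the BFP vector and open points the ISL1 vector. Knockout libraries with the BFP vector sit at the upper right, from 18.2 to 39.8 CPM of CACNA1B, and the lowest point is replicate 4 of PDX1-/- with the ISL1 vector at 2.64 CPM.

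With the ISL1 vector no calcium channel gene was called against WT. In ISL1-/- 0 of 8 channel genes were called by edgeR and DESeq2, with 0 at an unadjusted p under 0.05 and 1 by limma voom (CACNA1E), where 3.72% of all genes were called (1.02% higher, 2.69% lower). In PDX1-/- 0 of 8 were called by edgeR, with 3 at an unadjusted p under 0.05, 1 by DESeq2 (KCNJ11) and 0 by limma voom, where 0.634% of all genes were called (0.348% higher, 0.286% lower). At an unadjusted p under 0.05 were 4388 of 25884 genes in ISL1-/- and 4164 in PDX1-/-. DESeq2 called 1918 and 605 of 48395 genes in them, and limma voom 6338 and 0 of 25884. CACNA1B was at 0.49 ± 0.49 in ISL1-/-, 0.37 ± 0.49 in PAX6-/- and 0.09 ± 0.54 in PDX1-/-, with 95% intervals of -0.55 to 1.53, -0.67 to 1.41 and -1.04 to 1.22. In PDX1-/- the direction of CACNA1B depended on the library kept: 0.85 (adjusted p = 0.486) without replicate 4 and -1.67 (adjusted p = 0.0175) without replicate 2. Among the calcium channel genes CACNA1E had the largest values in size, -1.31 ± 0.62, -1.25 ± 0.62 and -2.03 ± 0.73, on few reads and without a call (adjusted p from 0.27 to 0.321).

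Within a genotype, the ISL1 vector was compared with the BFP vector. CACNA1B in PDX1-/- was the one channel gene called in any genotype: it fell by 1.85 ± 0.52 (SE) on the log2 scale (95% interval -2.95 to -0.75, adjusted p = 0.029), to 0.278 times its level with the BFP vector. That is 1 of 8 channel genes where 12.5% of all genes were called, 8.19% higher and 4.33% lower, with a median of 0.13 over all genes and -0.62 over the 8. Without replicate 4 of the ISL1 vector, which leaves 1 library in that group whose spread is taken to be that of the others, CACNA1B was at -1.09 (adjusted p = 0.27) and no channel gene was called. The call was also lost without replicate 1 or 3 of the BFP vector (adjusted p = 0.0706 and 0.092). Without replicate 2 of the ISL1 vector, which leaves only the library that stood apart in that group, CACNA1B was at -3.61. CACNA1C was then at -1.81, CACNA1D at -2.95 and CACNA1H at -2.36. With 1 library in the group, no calls of that fit are given. The calcium channel values of this comparison therefore differ by library, since replicate 4 was the lowest of all 21 libraries for CACNA1B, CACNA1C, CACNA1D and CACNA1H. In the same comparison 4 of 5 enterochromaffin markers, 3 of 10 general endocrine markers and 1 of 8 muscle markers were called lower. Called higher were 3 of 4 delta cell markers, 2 of 7 alpha cell markers and 3 of 7 progenitor and duct markers, and of 8 beta cell markers 3 were higher and 2 lower. Their part in the result was not tested.

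In the other genotypes edgeR called none of the 8 channel genes between vectors. Over all 25884 genes, 988, 1971 and 2658 had an unadjusted p under 0.05 in WT, ISL1-/- and PAX6-/-. Limma voom called 521, 2122 and 2579 genes there, and DESeq2 called 64, 383 and 483 of 48395. In WT 0.027% of all genes were called, and 0 channel genes had an unadjusted p under 0.05, with 0 called by DESeq2 and 1 by limma voom (CACNA1H). CACNA1H had the largest WT value, 1.02 ± 0.52 (95% interval -0.08 to 2.13, adjusted p = 1), and its 2 libraries with the ISL1 vector were above both with the BFP vector. In ISL1-/- 0.382% of all genes were called, 1 channel gene had an unadjusted p under 0.05, DESeq2 called 0 and limma voom 2 (CACNA1B and CACNA1E). CACNA1B was at -0.89 ± 0.44 and its libraries did not overlap, 18.2 to 27.3 CPM against 9.34 to 14.7 CPM. In PAX6-/- 0.355% were called, 3 channel genes had an unadjusted p under 0.05, DESeq2 called 1 (KCNJ11) and limma voom 2 (ABCC8 and KCNJ11). There all 8 values were below 0, with ABCC8 at -0.75 ± 0.27 (adjusted p = 0.331), KCNJ11 at -0.63 ± 0.18 (adjusted p = 0.206) and CACNA1B at -0.94 ± 0.44 (adjusted p = 0.478), while the median over all genes was 0.11. For 7 of the 8 genes, all but CACNA1A, the libraries did not overlap between vectors in PAX6-/-. The share of all genes without overlap is not reported here, so this count has no baseline. Without replicate 3 of the ISL1 vector no channel gene was called there either: ABCC8 was at -0.61, KCNJ11 at -0.64, CACNA1B at -0.70, CACNA1C at -0.22 in place of -0.50, CACNA1D at -0.55 in place of -0.92, CACNA1E at -0.53 in place of -0.94 and CACNA1H at -0.12 in place of -0.44.

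Whether the vector acted differently in a knockout than in WT was tested as the difference of the log2 fold changes. None of the 8 channel genes was called by edgeR in ISL1-/-, PAX6-/- or PDX1-/-, where 0.00386%, 0% and 1.19% of all genes were called. At an unadjusted p under 0.05 there were 1, 1 and 4 of 8, limma voom called 0 in each, and DESeq2 called 0, 0 and 1 (CACNA1B). Over all 25884 genes 769, 916 and 4150 had an unadjusted p under 0.05, and limma voom called 150, 136 and 44. DESeq2 called 24, 6 and 1127 of 48395. The difference for CACNA1B was -1.39 ± 0.70 in ISL1-/-, -1.44 ± 0.70 in PAX6-/- and -2.35 ± 0.74 in PDX1-/-, with adjusted p of 1, 0.894 and 0.134. That for CACNA1H was -1.22 ± 0.67, -1.46 ± 0.67 and -1.76 ± 0.71, with adjusted p of 1, 0.894 and 0.243. In PDX1-/- without replicate 4 of the ISL1 vector they were -1.58 (adjusted p = 0.414) and -1.01 (adjusted p = 0.746), and in PAX6-/- without replicate 3 they were -1.20 and -1.14 (adjusted p = 1 for both). A different response of these genes between genotypes was not shown, and the intervals, such as -2.86 to 0.07 for CACNA1B in ISL1-/-, do not show that the responses were alike.

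**Figure D5:**
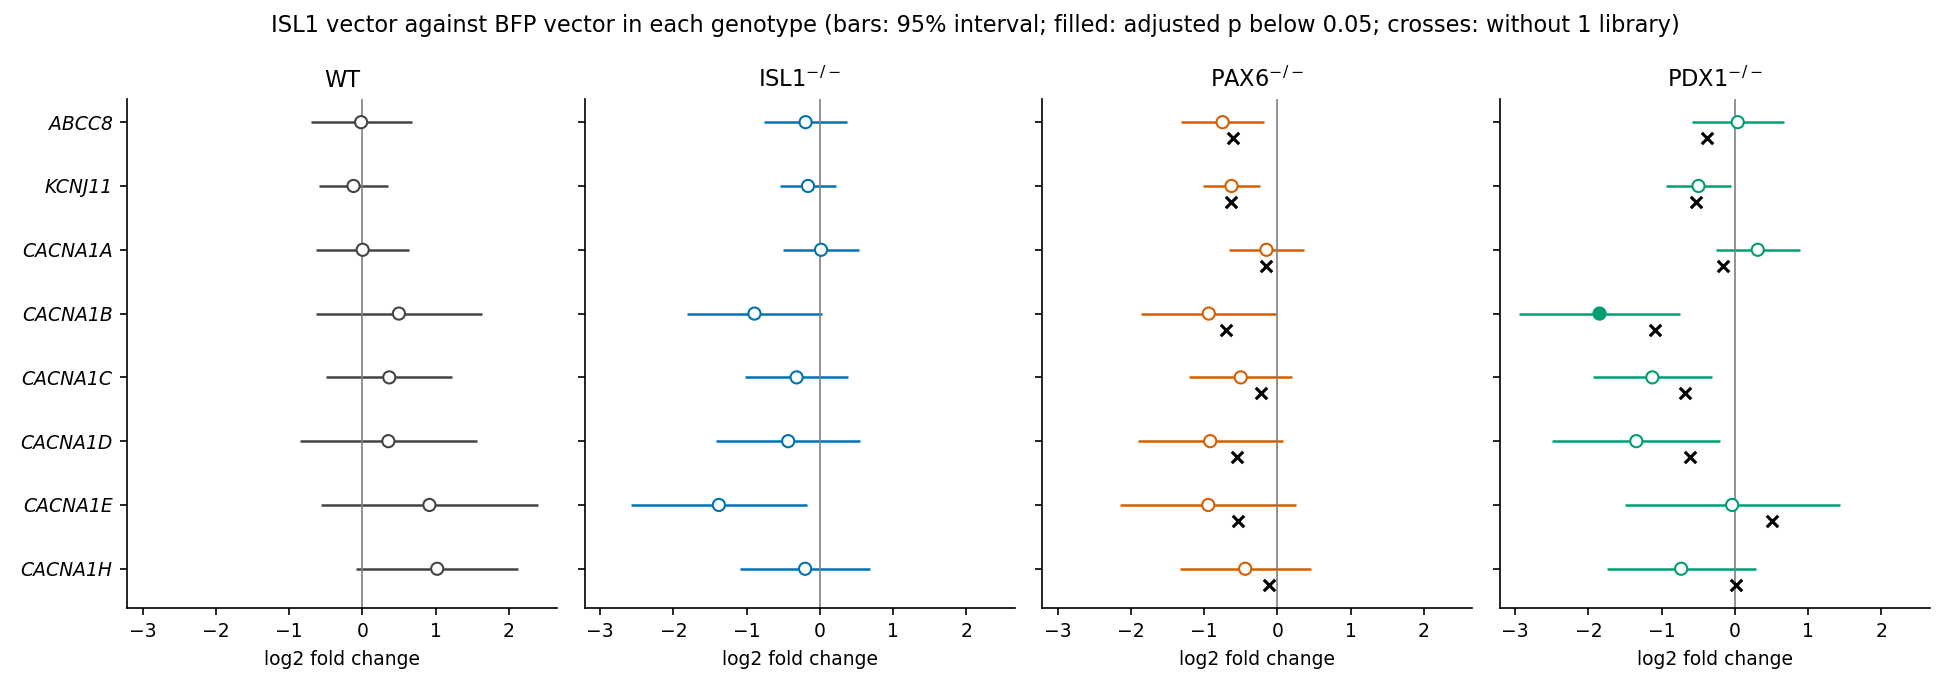
Log2 fold change of each channel gene (rows) between the ISL1 and the BFP vector within WT, ISL1-/-, PAX6-/- and PDX1-/- (panels); points are edgeR estimates, bars 95% intervals, the filled point has an adjusted p under 0.05, and crosses are estimates without replicate 3 of PAX6-/- or replicate 4 of PDX1-/- with the ISL1 vector. The filled point is CACNA1B in PDX1-/- at -1.85, and its cross is at -1.09.

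CACNA1B, CACNA1C, CACNA1D and CACNA1H varied together. Over the 21 libraries, the Pearson correlation of log2 CPM was 0.936 between CACNA1C and CACNA1D, 0.881 between CACNA1B and CACNA1H, and at least 0.821 for each of the other pairs among CACNA1B, CACNA1C, CACNA1D and CACNA1H. CACNA1A had correlations from -0.199 to -0.0929 with these 4, and CACNA1E from 0.282 to 0.509. ABCC8 and KCNJ11 had 0.864 with each other, and from -0.0942 to 0.358 with the 4. The libraries share groups, so these values describe a joint pattern of groups and single libraries. With each library taken as its deviation from its group mean, ABCC8 and KCNJ11 had 0.658, CACNA1B and CACNA1H 0.957, and ABCC8 and CACNA1A 0.866, while CACNA1E had 0.767 to 0.819 with the 4. Without the 2 libraries that stood apart (19 libraries), correlations among the 4 were 0.723 to 0.866, those of CACNA1A with them 0.0696 to 0.239, those of CACNA1E -0.0423 to 0.216, and that of ABCC8 with KCNJ11 0.918. As deviations from group means in these 19 libraries, ABCC8 had 0.638 to 0.896 with the 4, in place of 0.0437 to 0.433 over all 21, and CACNA1A had 0.556 to 0.794, in place of -0.24 to 0.161. The low values of these deviations over all 21 libraries rest on the 2 libraries that stood apart. The plain correlations stayed low without them: in the 19 libraries ABCC8 had -0.403 to -0.0486 with the 4 and KCNJ11 -0.432 to 0.0249.

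Of 12308 genes with a mean of at least 5 CPM, the 3 nearest to each channel gene by this correlation were named. For KCNJ11 the nearest was ABCC8, followed by LRRTM3 (0.833) and VAV3 (0.832). For ABCC8 they were NPTX2 (0.886), PTGR3 (0.878) and ADAMTSL1 (0.874). For CACNA1B they were LMX1B (0.974), a LIM homeodomain factor of serotonergic neurons, AMER3 (0.969) and CELF3 (0.968). For CACNA1C they were BSN (0.947), a presynaptic scaffold protein, CACNA1D (0.936) and HECTD4 (0.931), and for CACNA1D they were PLXNC1 (0.969), DMTN (0.965) and LSS (0.963). For CACNA1H they were NYNRIN (0.948), RAP1GAP2 (0.947) and DOCK6 (0.946). CACNA1A had TYMP (0.858), TSPAN1 (0.794) and PLIN3 (0.79), and CACNA1E had SEMA5A (0.823), GALNT5 (0.82) and NRP2 (0.817).

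The genes around these channels were read from 7 lists of 59 genes, 57 of which were tested. With the BFP vector 5 were called higher and 5 lower in ISL1-/-, 8 and 2 in PAX6-/-, and 14 and 4 in PDX1-/-, where 1.67% and 3.92%, 2.25% and 3.26%, and 4.03% and 5.65% of all genes were called. Their median log2 fold change was 0.02, 0.42 and 0.43, beside 0.02, 0.03 and 0.03 over all genes. Under the ISL1 vector 0 were called higher and 6, 4 and 0 lower in ISL1-/-, PAX6-/- and PDX1-/-, where 2.69%, 2.3% and 0.286% of all genes were called lower. Between vectors, 2 were called higher and 13 lower in PDX1-/- (8.19% and 4.33% of all genes), and 0 in the other genotypes, where 0.382% of all genes or fewer were called. Without replicate 4 of PDX1-/- with the ISL1 vector, 1 was called higher and 4 lower in PDX1-/- of 58 tested. Without both libraries that stood apart, 17 were called higher and 10 lower in ISL1-/-, 17 and 6 in PAX6-/- and 24 and 5 in PDX1-/- against WT with the BFP vector. Of all 27284 genes tested, 3091 were then called higher and 3326 lower in ISL1-/-, 3183 and 3240 in PAX6-/-, and 3686 and 3858 in PDX1-/-. Under the ISL1 vector the list counts were 2 and 11 in ISL1-/- and 3 and 11 in PAX6-/-. Over all genes they were 2244 and 3064, and 1139 and 2190. Between vectors the list counts were 4 and 8 in ISL1-/-, 0 and 5 in PAX6-/- and 0 in WT. Over all genes they were 521 and 824, 362 and 995, and 189 and 170. That fit leaves PDX1-/- with 1 library for the ISL1 vector, so its counts there are not given.

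Of 4 further alpha1 genes (CACNA1F, CACNA1G, CACNA1I and CACNA1S), 3 were tested and 0 called in any comparison. Of 11 auxiliary subunit genes, CACNB3, a beta subunit, was called higher in all 3 knockouts with the BFP vector, and CACNB1 in PAX6-/- as well. CACNA2D3, an alpha2delta subunit, which help carry the pore to the membrane, fell in all 3: it was at 29.2 and 40.5 CPM in WT, 7.86 to 12.4 CPM in ISL1-/-, 4.61 to 5.54 CPM in PAX6-/- and 13.3 to 18.0 CPM in PDX1-/-. Its log2 fold changes were -1.75 ± 0.24, -2.75 ± 0.24 and -1.13 ± 0.24, with adjusted p of 0.000342, 6.86e-06 and 0.00549, and the PDX1-/- call was lost without replicate 3 of WT. CACNA2D1, its relative, fell in PDX1-/- by 0.99 ± 0.30 (adjusted p = 0.0421), a call lost without any 1 of the 5 libraries of the comparison. CACNB2, another beta subunit, was not called: its log2 fold changes were -0.82 ± 0.24, 0.52 ± 0.25 and 0.30 ± 0.25, with adjusted p of 0.0604, 0.273 and 0.556.

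Of 5 other sulfonylurea receptor and inward rectifier genes, ABCC9 and KCNJ8 fell in ISL1-/-. They encode the SUR2 and Kir6.1 subunits of the KATP channel of vascular muscle. ABCC9 was at 4.20 to 5.83 CPM in WT and at 0.354 to 0.589 CPM in ISL1-/- with the BFP vector (-3.47 ± 0.50, adjusted p = 0.000567), and KCNJ8 at 15.4 to 21.4 CPM and 1.43 to 2.13 CPM (-3.33 ± 0.61, adjusted p = 0.0031). Both were also called lower in ISL1-/- with the ISL1 vector and in PDX1-/- with the BFP vector (-2.30 ± 0.48 and -2.25 ± 0.59, adjusted p = 0.00556 and 0.0216). The PDX1-/- calls were lost without replicate 3 of WT, and that of KCNJ8 without 3 other libraries too. Mesenchyme markers summed to 199 to 1102 CPM in WT and 128 to 317 CPM in ISL1-/- with the BFP vector, and to 1639 to 1882 CPM and 110.1 to 195 CPM with the ISL1 vector, where POSTN was called lower. Their part in these results was not tested. The KCNJ8 call with the ISL1 vector was lost without any 1 of the 5 libraries compared. KCNJ3, a G-protein gated inward rectifier, rose: it was at 12.2 and 18.1 CPM in WT, at 41.9 to 49.7 CPM in ISL1-/- and at 131 to 164 CPM in PDX1-/- with the BFP vector (1.64 ± 0.42 and 3.32 ± 0.46, adjusted p = 0.0283 and 0.000416). KCNJ6, of the same family, was called higher in PDX1-/-. The ISL1-/- call of KCNJ3 was lost without replicate 1 or 3 of either group.

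Among the repolarising potassium channel genes, KCNC1 was called higher in all 3 knockouts with the BFP vector, and KCNB2, KCNN3 and KCNK3 in PDX1-/-. KCNN3, a calcium-activated potassium channel, was at 8.44 and 13.6 CPM in WT and 51.4 to 67.3 CPM in PDX1-/- (2.44 ± 0.41, adjusted p = 0.00137). KCNK16, the TALK-1 channel of the islet, was called lower in ISL1-/- and PAX6-/- with either vector.

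Among the sodium channel genes, SCN3A was called higher in PAX6-/- and PDX1-/- with the BFP vector. SCN3A was at 6.24 and 7.71 CPM in WT, 27.9 to 43.4 CPM in PAX6-/- and 18.0 to 32.7 CPM in PDX1-/- (2.40 ± 0.49 and 1.81 ± 0.48, adjusted p = 0.00916 and 0.0234), and both calls were lost without either WT library, that in PDX1-/- without its own replicate 1 too. Of 7 TRP and chloride channel genes, 0 were called with the BFP vector. Of 14 genes of calcium stores, pumps and exchangers, ATP2B3 was called higher in all 3 knockouts, and SLC8A1 and ITPR2 in PDX1-/-, with SLC8A2 in PAX6-/- and PDX1-/-. SLC8A1, the sodium-calcium exchanger, was at 5.23 and 5.65 CPM in WT and 21.8 to 31.9 CPM in PDX1-/- (2.35 ± 0.50, adjusted p = 0.00614), a call lost without either WT library. ATP2B2, a calcium pump of the plasma membrane, fell in ISL1-/-, from 6.85 ± 0.919 CPM (SD, n = 2) to 1.41 ± 0.254 CPM (SD, n = 3) (-2.28 ± 0.44, adjusted p = 0.00453). The summed enterochromaffin markers given above were higher in these knockouts with the BFP vector, and their part in these results was not tested.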

How the data were processed

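Reads were aligned with STAR 2.7.11b to GRCh38 and counted with featureCounts 2.1.1, per the submitters' processing notes. The strand setting, the annotation release and the handling of multi-mapping reads are not given in the sources used here. The authors deposited raw counts per gene (whole numbers, per the file headers). Of 62700 entries 62699 were used, since that of ANK2 is broken over 3 lines. Symbols came from a name table that matched all IDs.

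Counts were scaled by TMM (CPM uses these library sizes) and filtered by filterByExpr (minimum count 10, total 15), which left 25884 genes, all 8 channel genes among them. edgeR 4.0.16 in R 4.3.3 fitted 1 quasi-likelihood model to all 21 libraries for 13 comparisons, with Benjamini-Hochberg adjustment within each. It was tested on simulated data. Groups of 2 or 3 libraries, biological replicates per the design text, limit the precision. Alternatives were RLE factors, no filter, DESeq2 1.42.0, limma 3.58.1 voom, only the groups compared, replicate blocks and leaving libraries out. Deviations of same-numbered libraries of the 2 vectors correlated at 0.155 to 0.391 in PAX6-/- and 0.099 to 0.293 in ISL1-/-. The blocks changed no count of channel genes between vectors in these genotypes.

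Named besides the 8 genes are their 3 nearest genes, up to 3 listed genes per knockout with the BFP vector (called, no overlap, at least 5 CPM in the higher group), CACNB2, CACNA2D1, ABCC9 and KCNJ8, and genes whose list count is 5 or fewer; some listed genes are not reported here. The 7 channel lists, the 10 marker lists (beta, alpha, delta, epsilon and enterochromaffin cells, general endocrine, neuron, muscle, mesenchyme, progenitor and duct) and the 8 genes were chosen with earlier results of these data known.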

Additional observations from a re-analysis of the deposited data

Results flagged for a closer look

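The effect of the ISL1 vector on KCNJ3, the G-protein gated inward rectifier, differed between PDX1-/- and WT by the test of the difference itself, at -2.76 on the log2 scale (edgeR adjusted p = 0.034). Between vectors KCNJ3 was at -0.07 ± 0.43 (SE) in WT and at -2.83 ± 0.44 in PDX1-/-, where its group mean was 150.8 ± 17.2 CPM (SD, n = 3) with the BFP vector and its libraries with the ISL1 vector were at 34.4 and 7.94 CPM. Without replicate 4 of PDX1-/- with the ISL1 vector the difference was -2.06 (adjusted p = 0.0375), and without replicate 2 it was -4.19. It was not called without any 1 of the 4 WT libraries or of the 3 PDX1-/- libraries with the BFP vector, with adjusted p from 0.0537 to 0.198, nor by limma voom (adjusted p = 0.0881) or in the fit of only the groups compared (adjusted p = 0.299). Enterochromaffin markers were lower between the same PDX1-/- groups, and their part was not tested.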

How the results depend on the processing

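Counts of channel genes called were compared over 203 alternative fits of the 13 comparisons, of which 147 kept the count within 1.5 times. Most main counts were 0, and a 0 that stayed at 0 is among those kept. The calls of ABCC8 and KCNJ11 were each kept in 12 of 14 alternatives. Those of CACNA1B against WT with the BFP vector were kept in 9 of 15 (ISL1-/-) and 13 of 15 (PDX1-/-). That of CACNA1B between vectors in PDX1-/- was kept in 7 of 14. Of the 104 log2 fold changes, 27 changed sign under some alternative, in 95 of 1624 values, and 1 of these was called: CACNA1B in PDX1-/- against WT with the ISL1 vector was 0.09 over all libraries, -1.67 without replicate 2 of PDX1-/- and 0.85 without replicate 4. With 2 or 3 libraries per group and a spread shared by all groups, calls near the threshold moved with the fit.

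With the BFP vector, against main counts of 1, 0 and 1 in ISL1-/-, PAX6-/- and PDX1-/-, voom called 2, 5 and 6, and a fit of the groups compared 2, 5 and 6. Over all genes voom called 6878, 6710 and 8328 of 25884. The groups compared called 5846 of 23020, 4899 of 22483 and 6717 of 21922. No filter called 1 in PAX6-/- and 2 in PDX1-/-, where 1421 and 2420 of 48398 genes were called. DESeq2 called 1 and 4, where 2487 and 3494 of 48395 were called. Without both libraries that stood apart, an alternative added after seeing the data, 2, 4 and 6 were called. With 1 library left out, counts ran from 0 to 1 in ISL1-/-, 0 to 2 in PAX6-/- and 0 to 3 in PDX1-/-. With the ISL1 vector, against 0, 2 and 0, voom called 1 in ISL1-/-, the groups compared 0 in PAX6-/- and DESeq2 1 in PDX1-/-. Over all genes these fits called 6338 of 25884, 43 of 23253 and 605 of 48395. The PAX6-/- count stayed at 2 without any 1 PAX6-/- library with the ISL1 vector. Those fits called 793 of 25819, 999 of 25635 and 700 of 25691 genes. Both calls were lost without replicate 1 of WT, which leaves 1 library there. In PDX1-/- 1 was called without replicate 3 of PAX6-/- with the ISL1 vector, where 660 of 25691 genes were called. Leaving out a library of WT or PDX1-/- leaves 1 in its group, so those PDX1-/- counts are not given.

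Between vectors, against 0, 0, 0 and 1 in WT, ISL1-/-, PAX6-/- and PDX1-/-, voom called 1, 2, 2 and 0. Over all genes voom called 521, 2122, 2579 and 22 of 25884. The groups compared called 1 in WT, 1 in ISL1-/- and 0 in PDX1-/-, where 316 of 21461, 1461 of 22432 and 0 genes were called. DESeq2 called 1 in PAX6-/- and 2 in PDX1-/-, where 483 and 4865 of 48395 were called. Without both libraries 1 was called each in WT, ISL1-/- and PAX6-/-, where 359, 1345 and 1357 of 27284 were called. Without 1 PDX1-/- library with the BFP vector, 0 to 1 were called in PDX1-/-, where 1199 to 1751 of all genes were called. Without replicate 3 of PAX6-/- with the ISL1 vector 3 were called in PDX1-/-, where 5949 of 25691 genes were called. For the differences of vector effects, all at 0, the groups compared called 1 for ISL1-/- (CACNA1H) and DESeq2 1 for PDX1-/-. Over all genes they called 108 of 24354 and 1127 of 48395. The PDX1-/- count stayed at 0 without any 1 PDX1-/- library with the BFP vector. Leaving out a PDX1-/- library with the ISL1 vector leaves 1 there, so those counts are not given. The cause was not tested.

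The labels do not state what libraries of equal replicate number share. By description number, deviations of such libraries of the 2 vectors correlated at 0.155 to 0.391 in PAX6-/- and 0.099 to 0.293 in ISL1-/-. The 1 pair in WT was at -0.0394 and that in PDX1-/- at -0.212. With a replicate block by description number, counts were 2 in PAX6-/- and 3 in PDX1-/- against WT with the BFP vector and 0 between vectors in PDX1-/-. Number 4 occurs only in replicate 4 of PDX1-/- with the ISL1 vector, so this block fits that library exactly. The counts against WT were also 2 and 3 when that library was left out. With a block by the number in the title, which differs for 3 libraries, the count was 0 in ISL1-/- against WT with the BFP vector. The blocks kept the other counts, 0 in WT among them.

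Counts over all genes moved as well. Against WT with the BFP vector edgeR called 1448, 1425 and 2506 genes in ISL1-/-, PAX6-/- and PDX1-/-, and the alternatives ran from 459 to 6878, 276 to 6710 and 736 to 8328. With the ISL1 vector, beside 962, 922 and 164, they ran from 242 to 6338, 43 to 4230 and 0 to 8879. Between vectors, beside 7, 99, 92 and 3240 in WT, ISL1-/-, PAX6-/- and PDX1-/-, they ran from 0 to 521, 14 to 2122, 0 to 2579 and 0 to 11519, and for the differences, beside 1, 0 and 308, from 0 to 150, 0 to 136 and 0 to 8493.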
